A study of Mus musculus with 6 samples.

Results

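The genes described here are 10 immediate early genes, Fos, Fosb, Jun, Junb, Jund, Egr1, Atf3, Ier2, Dusp1 and Nr4a1, in brain cells that had been dissociated and purified with O4 microbeads. The genes were taken by name, as the rows of the gene table that carry these symbols; the names themselves were picked with earlier results of these data known. They are 10 of the 55492 genes in the table, and all 10 were among the 15245 genes that passed the filter on low values, a mean TPM of at least 0.5 over all samples. TPM is transcript abundance per length, scaled so that every sample has an equal total.

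Whole brains of postnatal day 16 mice were dissociated with enzymes and by machine, and the cells were incubated on ice with magnetic beads coated with an antibody to O4, a lipid antigen on the surface of late oligodendrocyte progenitors and immature oligodendrocytes. The bead-bound cells were frozen, and poly(A) RNA from them was sequenced, with 1 library per mouse. The groups were 3 WT mice and 3 Npc1-/- mice, which carry the nih null allele of Npc1, the gene of the cholesterol transporter that is lost in Niemann-Pick disease type C. All 6 mice were F1 hybrids of BALB/cJ and C57BL6/J stock, none had been treated, and each replicate is a separate mouse. Npc1 is missing from every cell of these animals and not from oligodendrocytes alone. Every sample went through the dissociation, so levels with and without dissociation were not compared here.

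Immediate early genes are transcribed within minutes of a stimulus, without the synthesis of new proteins, from factors such as SRF and CREB that kinase cascades activate in place. Their transcripts are short-lived. They are known to be induced by growth factors, by neuronal activity and by the handling of tissue, and enzymatic dissociation of brain is a well-known trigger in glia and vascular cells. Fos and Fosb encode partners of the Jun proteins in the transcription factor AP-1. Jun, Junb and Jund encode the Jun proteins themselves, of which JunD is the one that resting cells usually express at a steady level. Atf3 encodes a stress-induced factor of the ATF/CREB family that can pair with Jun proteins. Egr1 encodes a zinc finger factor that binds GC-rich sites, and Nr4a1 an orphan nuclear receptor. Ier2 encodes a nuclear protein of the early response. Dusp1 encodes a phosphatase that removes the activating phosphates from MAP kinases and so closes the cascade that induces these genes.

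The start sites of the members are shown for the 4 in which a motif that was searched for was found. RefSeq start-site windows of GRCm38.p6 were given for 8 of the 10 members, all but Egr1 and Ier2. The 250 bases before the start were searched on both strands for the cAMP response element TGACGTCA, the AP-1 site TGANTCA, the EGR site GCGNGGGCG, the TATA box TATAAA and the CArG box, which SRF binds. Capitals mark the match, and bases that GENCODE M21 places in an exon are left out. The Fos stretch is chr12:85473740-85473889 on the plus strand, Fosb is chr7:19310052-19310195 on the minus strand, Nr4a1 is chr15:101266696-101266845 on the plus strand and Dusp1 is chr17:26508520-26508622 on the minus strand.
Fos: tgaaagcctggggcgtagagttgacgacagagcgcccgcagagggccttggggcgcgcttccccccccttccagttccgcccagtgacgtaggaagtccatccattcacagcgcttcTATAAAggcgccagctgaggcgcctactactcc
Fosb: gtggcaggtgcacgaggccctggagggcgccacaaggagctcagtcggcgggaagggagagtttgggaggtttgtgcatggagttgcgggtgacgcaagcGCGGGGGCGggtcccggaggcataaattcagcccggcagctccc
Nr4a1: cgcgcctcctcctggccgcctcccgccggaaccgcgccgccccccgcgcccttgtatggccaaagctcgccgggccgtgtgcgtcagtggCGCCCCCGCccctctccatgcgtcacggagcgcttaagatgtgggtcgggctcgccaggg
Dusp1: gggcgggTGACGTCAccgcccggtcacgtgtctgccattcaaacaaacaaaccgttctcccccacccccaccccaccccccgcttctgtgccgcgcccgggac

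The cAMP response element of Dusp1 lies 143 to 136 bases before the start, and 1.55% of the 32851 windows of all genes hold that motif. The TATA box of Fos lies 33 to 28 bases before the start (12.4% of all windows). The EGR sites of Fosb and Nr4a1 lie 50 to 42 and 60 to 52 bases before the start (4.7% of all windows). The AP-1 site was found in 0 of the 8 members' windows against 6.75% of all windows, and the CArG box in 0 of 8 against 1.47%. These are matches of letters in a short window and say nothing of binding in these cells. Sites farther from the start, or spelled with other letters, were not searched for, so a missing match does not show that a member lacks such a site. The window of Jund lies upstream of the start that GENCODE gives it, so the bases just before that start were not searched. The windows of Atf3, Nr4a1 and Dusp1 lie within the GENCODE gene, downstream of its outermost start.

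The libraries held about 40250000 to 50500000 fragments, estimated from the spacing of low FPKM values. Npc1 had 45.5 to 53.3 TPM in WT and 3.16 to 4.42 TPM in Npc1-/- samples, with a log2 fold change of −3.17 (SE 0.12, adjusted p = 0.000398 by limma). The O4-purified cells carried oligodendrocyte transcripts: the 6 mature oligodendrocyte markers summed to 174000 to 433800 scaled TPM over the 6 samples and the 6 immature ones to 2349 to 5857. Npc1-/- replicate 3 stood apart in that Xist was listed at 15.6 TPM and the Y-linked Ddx3y at 0, whereas Ddx3y had 14.4 to 23.6 TPM in the other mice. It also had the smallest size factor, and results are given with and without it. The size factor is the median ratio of a sample to the geometric mean of all samples over 18690 genes. It lay between 1.039 and 1.295 in WT and between 0.727 and 1.102 in Npc1-/- samples, and the levels below are TPM divided by it, called scaled TPM.

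All 10 immediate early genes were expressed in every sample. Jund had the highest TPM as deposited, with a mean of 105.6 and a range of 89.5 to 127.6 over the 6 samples, above 94.9% of the genes tested. Jun followed with a mean of 59.8 TPM (range 38.7 to 77.1) and Dusp1 with 45.3 TPM (23.1 to 69.3). Jund exceeded Jun in 6 of 6 samples, and Jun exceeded Dusp1 in 6 of 6.
Fos and Junb had means of 31.4 and 31.0 TPM, and Fos was above Junb in only 3 of 6 samples, so their order is not resolved. Ier2 had a mean of 19.8 TPM, Egr1 of 17.7 TPM and Nr4a1 of 14.3 TPM. Ier2 exceeded Egr1 in 5 samples, and Egr1 exceeded Nr4a1 in 6. Fosb, with a mean of 3.46 TPM (1.39 to 6.02), and Atf3, with 2.62 TPM (1.24 to 4.06), were lowest and still above 30.4% and 25.6% of the genes tested.

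**Figure D1:**
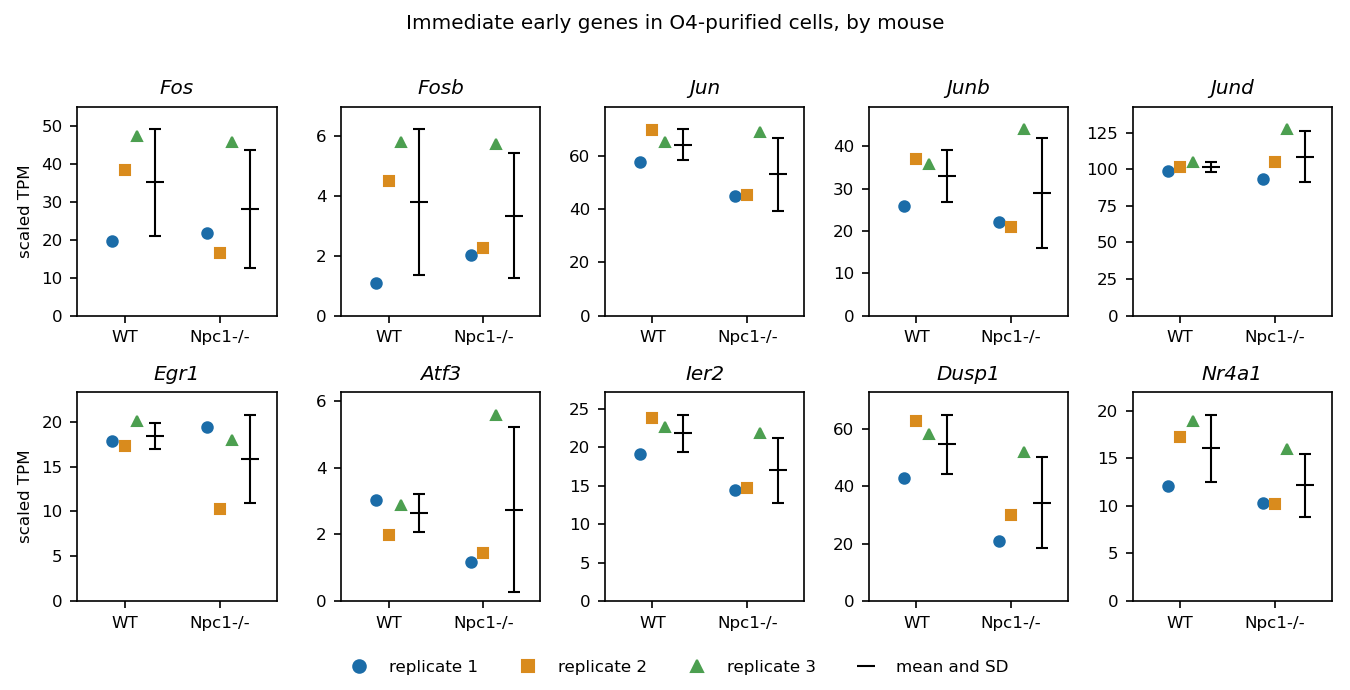
Scaled TPM (TPM divided by the size factor, linear axes starting at 0) of the 10 genes in each mouse, with the WT mice on the left and the Npc1-/- mice on the right of each panel; points are mice, and the bar beside them is the mean with the SD of 3. In every panel the ranges of the genotypes overlap, and the triangle of Npc1-/- replicate 3 is the highest point of all in Junb, Jund and Atf3.

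Npc1-/- samples were then compared with WT samples. By limma on log2(scaled TPM + 0.5), 0 of the 10 genes passed an adjusted p of 0.05 and a log2 fold change of 0.1 or more in size, where 0.813% of all genes tested did (0.413% in the direction of lower expression). At an unadjusted p below 0.05 there was 1 gene, Dusp1, lower in Npc1-/- samples, where 11.6% of all genes were lower at that level. No member had all 3 Npc1-/- samples below all 3 WT samples, where 14.2% of all genes did. The estimate was below 0 in 9 of the 10 genes, where 49% of all genes were, and their median log2 fold change was −0.28 beside 0.0081 for all genes tested. The exact permutation test of a single gene cannot go below p = 0.1 with 3 mice against 3.

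For Fos and Fosb, as for the other members, the mice of 1 genotype differed more than the genotype means did. Fos (ENSMUSG00000021250, chr12:85473890-85477273, plus strand) had 19.7, 38.4 and 47.2 scaled TPM in WT replicates 1, 2 and 3 and 21.8, 16.6 and 45.8 in Npc1-/- replicates 1, 2 and 3. Replicate 3 of each genotype was high and WT replicate 1 was among the low ones, so the groups overlapped widely. The means were 35.1 ± 14.0 and 28.1 ± 15.6 (SD, n = 3 each), with a log2 fold change of −0.36 (SE 0.43, 95% interval −1.38 to 0.65, adjusted p = 0.680 by limma, exact permutation p = 0.7).
Fosb (ENSMUSG00000003545, chr7:19302696-19310051, minus strand) had 1.07, 4.51 and 5.80 scaled TPM in WT and 2.02, 2.26 and 5.75 in Npc1-/- samples. Its lowest mouse was a WT mouse and replicates 3 were nearly level. The log2 fold change was −0.065 (SE 0.57, 95% interval −1.401 to 1.27, adjusted p = 0.962 by limma). Both intervals reach beyond 1 log2 unit, and both hold 0.

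The Jun family varied less from mouse to mouse than Fos and Fosb did. Jun (ENSMUSG00000052684, chr4:95049034-95052222, minus strand, a single exon) had 58.0, 69.7 and 65.2 scaled TPM in WT and 45.2, 45.3 and 69.1 in Npc1-/- samples. Npc1-/- replicates 1 and 2 lay below every WT mouse, and replicate 3 lay above all but 1 of them. The log2 fold change was −0.30 (SE 0.18, adjusted p = 0.385 by limma, exact permutation p = 0.3).
Junb (ENSMUSG00000052837, chr8:84974484-84978718, minus strand) showed the same arrangement, with 25.9, 37.1 and 35.8 scaled TPM in WT and 22.1, 20.97 and 44.1 in Npc1-/- samples. Npc1-/- replicates 1 and 2 were again lowest and replicate 3 was the highest of all. Its log2 fold change was −0.24 (SE 0.29, adjusted p = 0.681 by limma).
Jund (ENSMUSG00000071076, chr8:70698949-70700616, plus strand, a single exon) had 98.5, 101.2 and 105.0 scaled TPM in WT and 93.4, 104.7 and 127.4 in Npc1-/- samples. It was the steadiest member and the only one with an estimate above 0, a log2 fold change of 0.084 (SE 0.12, 95% interval −0.21 to 0.37, adjusted p = 0.749 by limma). That sign turned on TPM as deposited (−0.29) and with quantile normalization (−0.048), and it was below 0 as well without Npc1-/- replicate 3 (−0.042). The 3′ end of Junb overlaps Prdx2 on the opposite strand (mean FPKM 104.8), and an antisense gene, Gm11175 (mean FPKM 40.7), lies within Jund. Whether strand was used in counting is not given in the sources used here, so reads of these pairs may not have been told apart.

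Atf3 (ENSMUSG00000026628, chr1:191170296-191218039, minus strand) had 3.03, 1.98 and 2.89 scaled TPM in WT and 1.17, 1.45 and 5.59 in Npc1-/- samples. The lowest pair and the highest mouse were both Npc1-/-, and the SD on the log2 scale was 1.02 in Npc1-/- and 0.28 in WT mice. The mean was 2.74 ± 2.47 in Npc1-/- and 2.63 ± 0.57 in WT mice (SD, n = 3 each), a ratio of 1.04, whereas the log2 fold change was −0.19 (SE 0.47, adjusted p = 0.857 by limma). The direction of Atf3 thus depended on the scale of averaging. The log2 fold change was above 0 without Npc1-/- replicate 1 (0.16) or replicate 2 (0.043), and it was −0.79 without Npc1-/- replicate 3.

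Egr1 (ENSMUSG00000038418, on chromosome 18 from 34859823 to 34864984, plus strand) was level in WT, with 17.9, 17.3 and 20.1 scaled TPM, and had 19.4, 10.3 and 18.0 in Npc1-/- samples. A single mouse, Npc1-/- replicate 2, lay below the others, and without it the log2 fold change was 0.023 in place of −0.26 (SE 0.23, adjusted p = 0.569 by limma).
Nr4a1 (ENSMUSG00000023034, chr15:101254269-101274795, plus strand) had 12.1, 17.2 and 18.9 scaled TPM in WT and 10.3, 10.2 and 16.0 in Npc1-/- samples. Every Npc1-/- mouse was below the WT mouse of the same number, although WT replicate 1 lay below Npc1-/- replicate 3. The log2 fold change was −0.39 (SE 0.22, 95% interval −0.92 to 0.13, adjusted p = 0.356 by limma, exact permutation p = 0.2).

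Ier2 and Dusp1 had the lowest unadjusted p of the 10. Ier2 (ENSMUSG00000053560, chr8:84661331-84662852, minus strand, a single exon) had 19.1, 23.8 and 22.7 scaled TPM in WT and 14.4, 14.7 and 21.9 in Npc1-/- samples. Only Npc1-/- replicate 3 reached the WT range. The log2 fold change was −0.37 (SE 0.18, adjusted p = 0.267 by limma, exact permutation p = 0.2).
Dusp1 (ENSMUSG00000024190, chr17:26505590-26562128, minus strand) had 42.8, 62.6 and 58.3 scaled TPM in WT and 20.95, 29.9 and 51.9 in Npc1-/- samples. The 2 lowest mice were Npc1-/-, and Npc1-/- replicate 3 was above WT replicate 1. The means were 54.6 ± 10.4 in WT and 34.3 ± 15.9 in Npc1-/- mice (SD, n = 3 each), a ratio of 0.628. The log2 fold change of −0.74 (SE 0.31, 95% interval −1.48 to −0.0048) was the largest of the members, and its adjusted p was 0.222 by limma (unadjusted 0.0489, exact permutation p = 0.2). The gene model of Dusp1 overlaps Ergic1 on the opposite strand (mean FPKM 12.2).

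The scaling decided whether any member passed the test. On TPM as deposited, 3 genes were lower in Npc1-/- samples at the same thresholds, where 5.71% of all genes were: Dusp1 with a log2 fold change of −1.11 (limma, adjusted p = 0.0174), Ier2 with −0.74 (adjusted p = 0.0443) and Jun with −0.67 (adjusted p = 0.0466). Jun, Junb, Jund, Ier2, Dusp1 and Nr4a1 then had every Npc1-/- value below every WT value, a state of 25.6% of all genes. Dusp1, for example, had 55.4, 69.3 and 60.6 TPM in WT and 23.1, 25.6 and 37.7 TPM in Npc1-/- samples before scaling. On that scale, however, the median of all genes was itself at −0.33. Mbp alone took 18.8% to 22.2% of TPM in WT and 20.2% to 26.1% in Npc1-/- samples. The part of Mbp in that median was not tested. Relative to that median the members had a log2 fold change between −0.79 (Dusp1) and 0.038 (Jund).

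**Figure D2:**
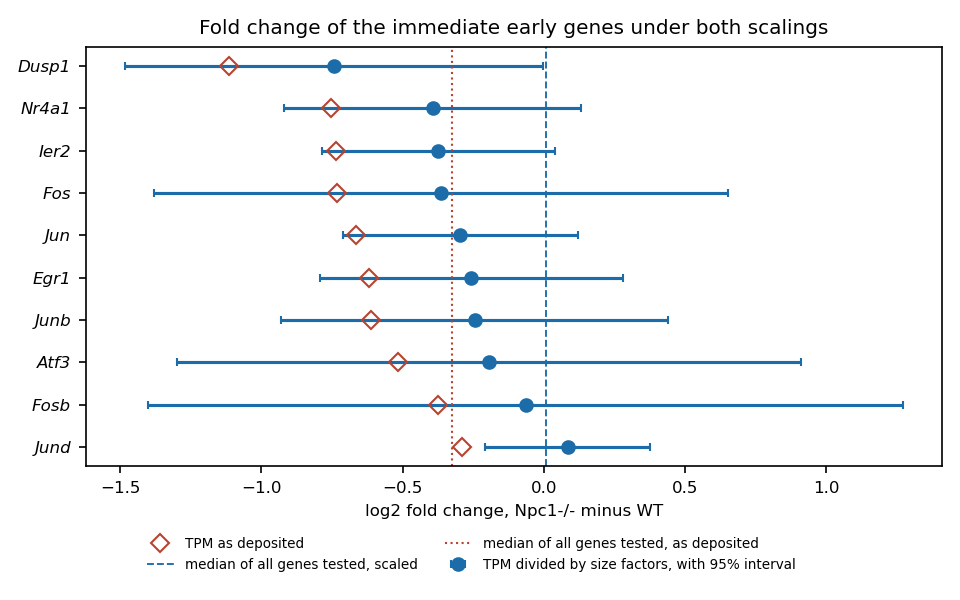
Log2 fold change of the 10 genes, Npc1-/- minus WT, on log2(value + 0.5); filled circles are scaled TPM with the 95% interval of the limma fit, open diamonds are TPM as deposited, and the vertical lines are the medians of all 15245 genes on each scale. Of the 10 intervals, only that of Dusp1 (−1.48 to −0.0048) does not hold 0, and every diamond lies to the left of its circle, as does the line of all genes.

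A ratio within a sample does not depend on the size factor. The ratio of each gene to Jund, the steadiest member, was therefore taken, a choice made after the values had been seen. The ratio of Dusp1 to Jund was 0.434, 0.619 and 0.555 in WT and 0.224, 0.286 and 0.407 in Npc1-/- samples. The ratio of Ier2 to Jund was 0.194, 0.235 and 0.216 in WT and 0.154, 0.141 and 0.172 in Npc1-/- samples. Jun to Jund was 0.588, 0.689 and 0.621 in WT and 0.484, 0.433 and 0.543 in Npc1-/- samples. For these 3 of the 9 genes other than Jund the groups did not overlap, as for 14.4% of all genes set against Jund in that direction, and for the other 6 they did. No test was run on the ratios, and a difference in such a ratio does not tell whether the numerator or Jund differed.

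The same-numbered replicates were compared as well, although the labels share only the number and the samples come from different mice. Npc1-/- replicate 2 was below WT replicate 2 in 9 of the 10 genes, all but Jund, with a median difference of −0.73 on the log2 scale. Npc1-/- replicate 1 was below WT replicate 1 in 7 genes, with a median of −0.22, and Fos, Fosb and Egr1 were higher. For replicate 3 the count was 6 of 10 and the median −0.026. The same medians over all genes were 0.028, 0.00090 and −0.0030 for numbers 1, 2 and 3.
Ier2, Dusp1 and Nr4a1 were lower in Npc1-/- in all 3 comparisons, 3 of 10 genes where 25.4% of all genes were. Dusp1 differed by −1.01, −1.05 and −0.17, Nr4a1 by −0.22, −0.73 and −0.24, and Ier2 by −0.40, −0.67 and −0.050 on the log2 scale. Fos differed by 0.14, −1.19 and −0.042, so that its estimate came mainly from 1 pair of mice. Atf3 differed by −1.08, −0.35 and 0.85.

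Most members varied more between mice of the same genotype than other genes of like level did. Among the 500 genes nearest in level, the residual SD of Fos stood at percentile 99.8, that of Dusp1 at 99.6, Fosb at 98.6, Junb at 97.6 and Atf3 at 97.2. Nr4a1, Egr1, Ier2 and Jun lay between 84.0 and 92.2, and Jund at 59.9. The median over the 10 genes was percentile 94.7, beside 79.2 for the 41 other immediate early genes tested, which are described below. A wide spread was not particular to the members: of other lists, Hspb1 (98.8) and C1qa (97.6) stood as high, while Hspe1 (60.5) did not. In 9 of 10 genes the SD on the log2 scale was larger in Npc1-/- than in WT mice, with Fosb the exception (0.72 against 1.07), and the same held for 60.6% of all genes tested. Fragments could be estimated only for Jun, Jund and Ier2, which have a single transcript. Their counting error came to 1.21% to 4.3% of the value. For the other members, among them those with the widest spread, it was not estimated, and its part in the spread was not tested.

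Ier2, Jun, Nr4a1 and Junb shared much of one pattern over the 6 mice, and the other members less of it. The median of the log2 levels of all 10 members, each centred on its own mean, was −0.041, 0.31 and 0.25 in WT replicates 1, 2 and 3. In Npc1-/- replicates 1, 2 and 3 it was −0.40, −0.44 and 0.30. Thus WT replicates 2 and 3 and Npc1-/- replicate 3 were high, and Npc1-/- replicates 1 and 2 were low. Ier2 lay closest to that median, with a mean absolute difference of 0.041 over the 6 samples, followed by Jun (0.059), Nr4a1 (0.076) and Junb (0.085). Dusp1 (0.20), Jund (0.22), Egr1 (0.24) and Fos (0.29) were farther off, and Fosb (0.42) and Atf3 (0.36) lay farthest from it. That median was made from the members themselves.
Among 9142 other genes whose mean TPM reached 5, the nearest in pattern were Mier1 (mean absolute difference 0.061), Aqp11 (0.063), Pdk1 (0.070), Clic4 (0.084) and Ddit4 (0.095). Mier1 encodes a chromatin corepressor, Aqp11 an aquaporin, Pdk1 a kinase of pyruvate dehydrogenase, Clic4 an intracellular chloride channel protein and Ddit4 a stress-induced inhibitor of mTORC1 signalling. None of them is in the immediate early lists used here, and their adjusted p by limma lay between 0.213 and 0.485.

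**Figure D3:**
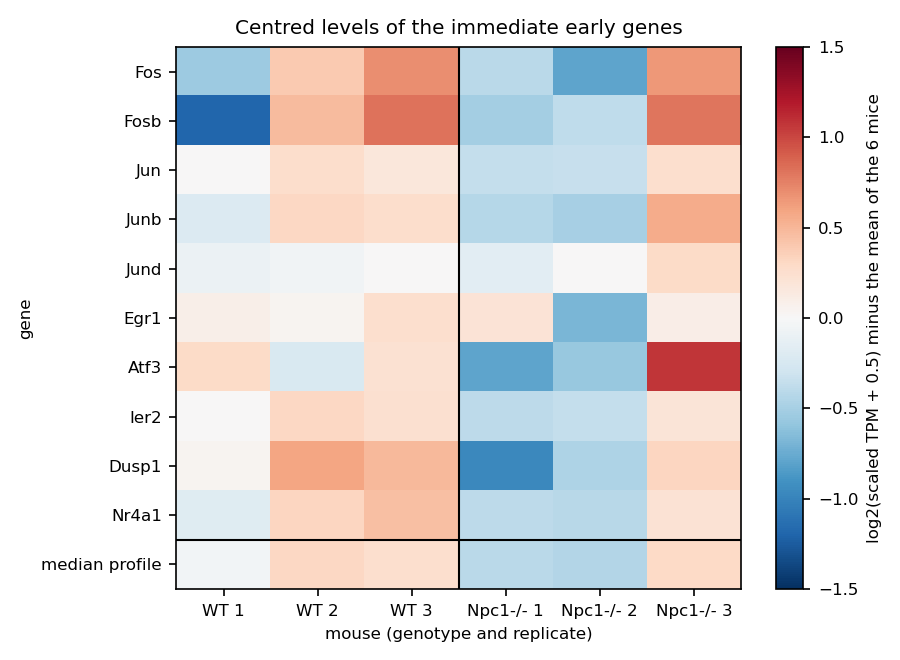
Centred levels, log2(scaled TPM + 0.5) minus the mean of the 6 mice, of each gene (rows) in each mouse (columns), with the median over the 10 genes in the bottom row; red is above and blue below the gene's own mean. Npc1-/- replicates 1 and 2 are blue in nearly all rows (median −0.40 and −0.44), WT replicates 2 and 3 and Npc1-/- replicate 3 are red in most (0.31, 0.25 and 0.30).

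Leaving out single mice moved the estimates. Without Npc1-/- replicate 3, all 10 estimates were below 0 and their median was −0.58, beside 0.014 for all genes tested. Dusp1 was then at −1.09 (adjusted p = 0.0550 by limma), Jun at −0.50 (0.0609) and Ier2 at −0.57 (0.0613). Still none of the 10 passed, where 106 of the 15245 genes tested were called higher and 371 lower. Without Npc1-/- replicate 2 the median was −0.057 and only 6 estimates were below 0. Each other mouse left out gave a median between −0.44 and −0.19.

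Other immediate early genes had estimates in the same direction for the most part. The list held 44 further genes of the early response, of which 41 were tested (Fosl1, Egr4 and Npas4 were under the filter). It too was picked with earlier results of these data known, and it was measured in the same 6 mice. At an adjusted p of 0.05 by limma none was called in either direction, 33 of 41 had an estimate below 0 (49% of all genes), and their median log2 fold change was −0.34. In 15 genes (36.6%, against 14.2% of all genes) all Npc1-/- values lay below all WT values, and in 1, Arc, they lay above. At an unadjusted p below 0.05, 15 of the 41 were lower, against 11.6% of all genes.
The lowest estimates were those of Ccn1 and Ccn2, which encode secreted matricellular proteins and are targets of SRF and YAP. Ccn1 had 16.7 ± 2.28 scaled TPM in WT and 9.48 ± 2.78 in Npc1-/- mice (SD, n = 3 each), with a log2 fold change of −0.81 (SE 0.20, adjusted p = 0.08004 by limma). Ccn2 had 26.4 ± 3.92 and 15.6 ± 6.52 (SD, n = 3 each), also −0.81 (SE 0.26, adjusted p = 0.134 by limma).
Arc, an activity-regulated gene best known from neurons, went the other way, with 11.01 ± 1.31 scaled TPM in WT and 16.3 ± 0.88 in Npc1-/- mice (log2 fold change 0.55, SE 0.11, adjusted p = 0.0590 by limma, the lowest of the list). Mafk, a small Maf factor, had the next highest estimate, 0.37 (adjusted p = 0.680). On TPM as deposited, where 5.71% of all genes were called lower, 15 of the 41 were.

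The kinases and factors upstream gave 1 call. Of 27 genes, which ran from Ras and the MAP kinases to SRF and CREB, Mrtfb was called lower and none higher, and the median was −0.0043. Of all genes tested, 0.413% were called lower. In 9 of the 27 all Npc1-/- values lay below all WT values, against 14.2% of all genes. In 4 they lay above, against 2033 of the 15245 genes tested. Mrtfb encodes a cofactor that carries actin signals to SRF, a regulator of many immediate early genes. It had 7.45 ± 0.53 scaled TPM in WT and 4.33 ± 0.36 in Npc1-/- mice (SD, n = 3 each), without overlap, with a log2 fold change of −0.72 (SE 0.11, adjusted p = 0.0443 by limma). That adjusted p lay between 0.0189 and 0.193 over the alternatives, and it was above 0.05 when any mouse but Npc1-/- replicate 3 was left out. Leaving out WT replicates 1, 2 and 3 gave 0.134, 0.162 and 0.0972, and leaving out Npc1-/- replicates 1 and 2 gave 0.0710 and 0.193.
Rps6ka1, a kinase downstream of ERK, had a log2 fold change of −0.48 (adjusted p = 0.0635). Map2k7, a kinase that activates JNK and through it Jun, had 30.7 ± 5.81 scaled TPM in WT and 75.5 ± 34.0 in Npc1-/- mice (SD, n = 3 each), without overlap. Its log2 fold change was 1.20 (SE 0.31, adjusted p = 0.0866 by limma). Its gene model overlaps Gm49320 on the same strand (mean FPKM 0.28). Map2k4 of the same list went the other way, at −0.17 (adjusted p = 0.335 by limma), also without overlap. Crem, which encodes cAMP-responsive activators and repressors, was at 0.70 (adjusted p = 0.143).

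Heat shock genes are induced by proteotoxic stress and by warm dissociation. None of the 14 was called, and their median log2 fold change was −0.019. In 2 of them all Npc1-/- values lay below all WT values, against 14.2% of all genes. In 2 others they lay above, against 2033 of the 15245 genes tested. Hspb1, a small heat shock protein also known from vascular cells, had 57.5 ± 4.56 scaled TPM in WT and 29.5 ± 13.2 in Npc1-/- mice (SD, n = 3 each), without overlap, a log2 fold change of −1.04 (limma, adjusted p = 0.102). The inducible Hspa1b was at −0.98 (adjusted p = 0.243), which is uncertain because reads may be split with the near-identical Hspa1a (−0.87). The constitutive Hsp90ab1 was at 0.42 (adjusted p = 0.285) and the mitochondrial Hspe1 at 0.39 (adjusted p = 0.137).

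**Figure D4:**
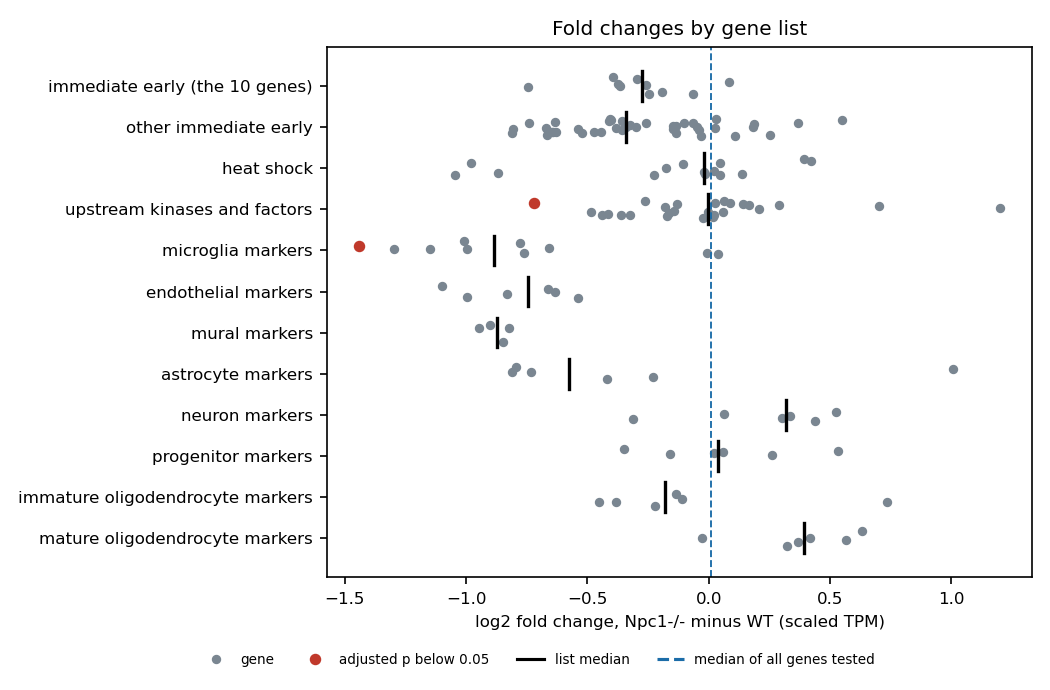
Log2 fold change, Npc1-/- minus WT on scaled TPM, of each tested gene (points) of the 10 immediate early genes and 11 other lists (rows), with the list median as a black bar, genes with an adjusted p below 0.05 in red and the median of all genes tested as a dashed line. The medians of the immediate early lists (−0.28 and −0.34) lie left of the dashed line, those of the heat shock and upstream lists near it, and those of the microglia, endothelial and mural lists farthest left.

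Markers of cell types other than oligodendrocytes were present in the O4-purified fraction and moved with genotype. The 10 microglia markers summed to 223 to 346 scaled TPM in WT and to 109 to 201 in Npc1-/- samples (ratio of means 0.552), 7 of 10 lay below every WT value, and Tmem119 was called lower (log2 fold change −1.44, limma, adjusted p = 0.0442). Of the same list, Trem2 was at 0.039 and Aif1 at −0.0070. The 6 endothelial markers summed to 847 to 968 in WT and 424 to 714 in Npc1-/- samples (ratio 0.650), and 5 of 6 did not overlap. The 4 mural markers summed to 618 to 864 in WT and 333 to 458 in Npc1-/- samples (ratio 0.537), and none of the 4 overlapped. Of all genes tested, 14.2% had every Npc1-/- value below every WT value, and 0.413% were called lower.
In these 3 lists no sum overlapped between the genotypes, no marker was listed at 0 in any sample, and the highest markers were C1qa, Cldn5 and Acta2 in WT. In bulk samples fewer cells of a type and less RNA per cell cannot be told apart. The 10 immediate early genes summed to 298 to 382 scaled TPM in WT and 251 to 405.5 in Npc1-/- samples (ratio 0.866), and the other immediate early list to 912 to 1085 and 671 to 1053 (ratio 0.840).
Npc1-/- replicate 1 was the lowest of the 6 mice in the microglia and endothelial sums and in the sum of the members. Within the Npc1-/- group, replicate 3 was highest in all 4 sums. WT replicate 1, however, had the highest microglia, endothelial and mural sums of all mice and the lowest sum of the members within WT. The part of these cells in the levels of the immediate early genes was not tested.

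**Figure D5:**
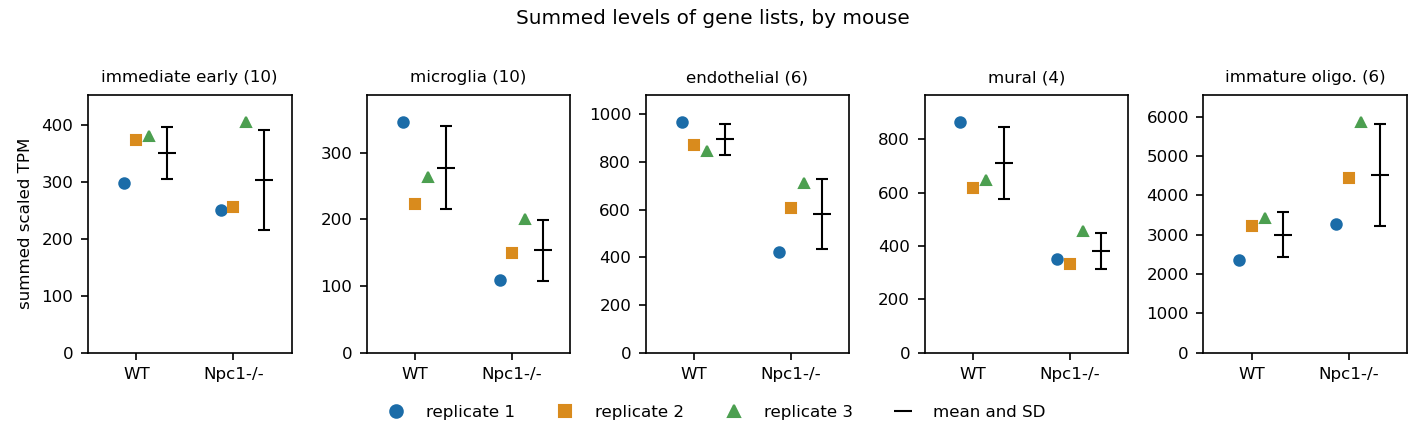
Summed scaled TPM (linear axes starting at 0) of the 10 immediate early genes and of 4 marker lists in each mouse, with the number of genes in parentheses; points are mice and the bar is the mean with the SD of 3. The microglia, endothelial and mural sums do not overlap between the genotypes (ratios 0.552, 0.650 and 0.537), while the sum of the immediate early genes does (ratio 0.866).

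The mature and immature oligodendrocyte lists had higher sums on average in Npc1-/- samples. The 6 mature markers summed to 174000 to 245400 scaled TPM in WT and 219900 to 433800 in Npc1-/- samples (ratio 1.51), with a median log2 fold change of 0.39. Mbp makes up most of that sum, with 182400 scaled TPM in WT and 277400 in Npc1-/- mice. Its own log2 fold change was 0.57 (SE 0.89, adjusted p = 0.765 by limma). None of the 6 was called, 5 estimates were above 0 and that of Cnp was −0.029. The immature markers summed to 2349 to 3425 and 3262 to 5857 (ratio 1.51), although their median log2 fold change was −0.18, since Bcas1, with 2247 scaled TPM in WT and 3845 in Npc1-/- mice, makes up most of that sum. Progenitor markers had a ratio of 1.02, neuron markers of 1.11, astrocyte markers of 0.956 and erythrocyte markers of 0.732, each with overlap of the sums. The astrocyte markers had a median log2 fold change of −0.58, with 5 of 6 lower in every Npc1-/- mouse than in any WT mouse, against 14.2% of all genes. The other, Gfap, was higher in every Npc1-/- mouse than in any WT mouse, with 88.9 ± 10.06 scaled TPM in WT and 189.9 ± 80.0 in Npc1-/- mice (SD, n = 3 each; log2 fold change 1.01, limma, adjusted p = 0.108). The share of TPM from mitochondrial genes was 20.6% to 23.2% in WT and 22.6% to 24.7% in Npc1-/- samples. The part of depth, RNA quality or cell composition in the results above was not tested.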

How the data were processed

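Poly(A) RNA of O4-purified cells was measured in 3 WT and 3 Npc1-/- mice, grouped by the genotype in the sample labels. The authors deposited TPM and FPKM per gene for each sample. FPKM is TPM times 1 factor per sample. The submitters' processing notes name cutadapt 2.3, FastQC 0.11.8, STAR 2.7.8a, RSEM 1.3.3 and MultiQC 1.7, whereas the study's methods name bbduk, STAR and featureCounts on GRCm38. Which of them made the deposited TPM is not given in the sources used here. These values are not counts, so no count test was run. Since TPM has a fixed total, a transcript that fills much of a library lowers every other gene.

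TPM was divided by median-of-ratios size factors, and log2 was taken with a pseudocount of 0.5, which understates the change of low genes. The model was limma 3.58.1 run under R 4.3.3, with lmFit and a trended eBayes, genotype as its only factor, two-sided tests and Benjamini-Hochberg adjustment over the 15245 genes whose mean TPM was 0.5 or more. Python 3.11.15, numpy 2.4.6, pandas 2.3.3 and matplotlib 3.10.9 were used for positions (GENCODE M21), depth, motifs and plots. Depth was estimated from the steps of low FPKM values, with 80.5% to 84.9% of them less than 0.15 away from whole fragments, where chance gives 30.0%. Precision rests mainly on the number of mice. The model was tested on simulated data for these genes. A log2 change of 1.5 was given to 200 genes, drawn only from those above a set mean level, which Fosb and Atf3 did not reach. The model called 180 (90%) of the 200, with 16 false calls, and the largest error of a size factor was 0.181%. The log2 change given is larger than the estimate of any member, and the simulated noise was independent between genes. The 90% therefore does not tell how often a change of the size seen in the members would be called.

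The members and lists were chosen with earlier results of these data known. Named were all members, the 5 genes nearest to them in pattern, Npc1, the genes called in the immediate early, heat shock and upstream lists, and otherwise the 2 highest and the 2 lowest of each. Tmem119, Trem2, Aif1, Gfap, Hspa1a, Bcas1, Mbp, Cnp, Map2k4, and the sex-linked and overlapping genes were named after their values were seen. The alternatives were other scalings, pseudocounts, filters and fits, FPKM, the replicate number as a block, and each mouse left out. A curve on transcript length and the ratio to Jund were added after seeing the data.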

Additional observations from a re-analysis of the deposited data

How the results depend on the processing

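Of the 10 immediate early genes, 0 passed the test in either direction under every alternative run except TPM as deposited, which called 3 lower. With the filter raised to a mean TPM of 5, only 8 of them were tested. Their median log2 fold change stayed below 0 throughout, from −0.64 (TPM as deposited) to −0.057 (without Npc1-/- replicate 2). Leaving out 1 mouse moved Dusp1 between −1.09 and −0.44. The sign of 4 uncalled estimates turned: Jund on TPM as deposited (−0.29) and with quantile normalization (−0.048), Fosb with the curve on transcript length (0.029), and with 1 mouse left out Fosb (−0.67 to 0.32), Egr1 (−0.42 to 0.023), Atf3 (−0.79 to 0.16) and Jund (−0.042 to 0.19).

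Over all genes, 61 were called higher and 63 lower. TPM as deposited gave 54 higher and 870 lower, quantile normalization 92 higher and 133 lower, limma without trend 26 and 16, no filter 14 and 7, and the filter raised to 5 gave 175 and 272. Leaving out 1 mouse gave 4 to 106 higher and 1 to 371 lower. The highest of these came without Npc1-/- replicate 3 (106 and 371), and leaving out any other mouse gave at most 16 higher and 7 lower. The cause was not tested. The call of Mrtfb was lost with no filter (adjusted p = 0.104 by limma), without trend (0.0648) and with the curve on transcript length (0.0606).

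Same-numbered samples shared only the number: their deviations correlated at 0.414, 0.0602 and 0.326, although by this correlation each of the 6 samples matched its own number best, a hint from the data and not from the design. With that number as a block in the fit, 1143 genes were called higher and 868 lower, and 0 of the 10 members, with Dusp1 at an adjusted p of 0.0571 by limma. The block called 1 higher and 6 lower of the other immediate early genes, 1 and 2 of the heat shock genes, and 2 and 3 of the upstream genes, where the fit without it called 0, 0 and 1 in all. The number of mice, 3 per genotype, limits the precision of each estimate to the 95% interval given.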
